A study of Mus musculus with 42 samples.

Results

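The comparison was between uterine tissue-resident NK cells (trNK) with high surface CD55 and 4-1BB, named trNK-T, and those with low CD55 and 4-1BB, named trNK-V, sorted from C57BL/6 females at gestation day (gd) 8.5. Membership was set by the sort label alone: 2 trNK-T and 2 trNK-V bulk RNA-Seq libraries, 4 of the 42 samples of the series, compared across all expressed genes. The series followed uterine NK cells from virgin females into the decidua, the transformed lining of the pregnant uterus, and 34 of its samples were bulk RNA-Seq libraries. All groups used here were wild-type C57BL/6 with no added agent in the animal or in culture unless said otherwise, from females 8 to 12 weeks old, with the day of the copulation plug taken as gd0.5. Every subset shared the gate CD45+, NK1.1+, NKp46+, CD49a+ and CXCR6-, and differed in the CD55 and 4-1BB gate: low for both in trNK-V, intermediate in trNK-D and high in trNK-T. The trNK-D libraries, 2 in number, entered the same model and were otherwise used as the group in between. A subset of this kind is a gate on a continuum of 2 surface proteins, and the labels do not say whether the replicates came from separate females or from pools, so p-values measured the spread between these libraries, which may be technical.

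NK cells kill by releasing granules that hold perforin, which opens the target membrane, and granzymes, serine proteases that enter through it. Their activity is set by the balance of activating and inhibitory receptors, many of them encoded together in the NK gene complex, and they also secrete cytokines and chemokines that act on neighbouring cells. In the decidua of the mouse, NK cells become large and granulated around the time the placenta begins to form, and are known for their part in remodelling the uterine arteries.

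The libraries held 15431640 and 14042507 counts in trNK-V, 15069961 and 11862089 in trNK-T, and 20786471 and 19680835 in trNK-D, with 16509 to 18288 genes counted in each. Levels are given as RPKM (read counts scaled by gene length and library total), and where values are listed they are in the order replicate 1, replicate 2. A gene was tested where its RPKM passed 10 in both libraries of any subset, which 4682 genes did, and it was called where the Benjamini-Hochberg adjusted p of edgeR's quasi-likelihood test was under 0.05 and the fold change over 2. Fold changes are of trNK-T over trNK-V, on the log2 scale with their standard error (SE), n = 2 libraries a group. One library, trNK-D replicate 2, stood apart in transcripts of B and plasma cells. It had 21084 RPKM of Igkc, the antibody kappa chain, against 2.38 to 30.4 in the other 5. The 11 listed B and plasma cell markers, Igkc included, summed to 23069 RPKM there and to 172 to 345 in the others. Of the 11, 3 were tested and 0 called. Igkc was not called between trNK-T and trNK-V (adjusted p = 0.387 in edgeR's test), though leaving out either trNK-D library changed this. In bulk RNA, fewer cells of a type and less RNA per cell cannot be told apart.

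The genes of the sort gate followed the labels, which is no finding because they chose the cells. Cd55, which protects cells from complement, was at 6.44 and 19.4 RPKM in trNK-V, 52.9 and 72.6 in trNK-D and 179 and 214 in trNK-T. Tnfrsf9, the gene of 4-1BB, was at 200 and 138, 465 and 507, and 1172 and 1357 RPKM. Cxcr6, gated out in all subsets, was at 4.50 and 33.8 RPKM in trNK-V and listed at 0 counts in both trNK-T libraries, at least 158-fold lower against a floor of 3 counts a library. Of the genes gated positive in all subsets, Ptprc (CD45) was lower in trNK-T (79.4 and 80.8 against 182 and 182 RPKM; log2 fold change -1.18, SE 0.17, adjusted p = 0.00535), as was Klrb1c (NK1.1; 106 and 95.5 against 288 and 367 RPKM; -1.70, SE 0.24, adjusted p = 0.00518). Ncr1 (NKp46) had 637 and 494 against 1022 and 960 RPKM, a log2 difference of -0.81 that stayed under the fold limit except without trNK-T replicate 1, and Itga1 (CD49a) had 15.6 and 13.9 against 21 and 15.9 RPKM, which did not pass the test. Eomes, a T-box factor that defines NK cells, was at 40.3 and 41.1 against 47.9 and 44.7 RPKM and did not pass either.

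Of the 4682 tested genes, 992 were called, which is 21.2%: 378 were higher in trNK-T (8.07%) and 614 lower (13.1%). The median log2 fold change over all tested genes was -0.01. Non-overlap of the libraries was common: in 74.8% of the tested genes both libraries of one subset lay above both of the other, and all 992 called genes were among them. The expression filter let in 81 of the genes called higher through trNK-T alone and 202 of those called lower through trNK-V alone, and such genes had to differ. The count of calls rested on each library unequally: without trNK-T replicate 2 it was 365, without trNK-V replicate 2 it was 547, and without any 1 of the other 4 libraries it was between 827 and 971. Of the 992 genes, 304 were called whichever library was left out, 115 of them higher and 189 lower. Below, a gene is said to be called in every leave-out where it belonged to those 304.

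**Figure D1:**
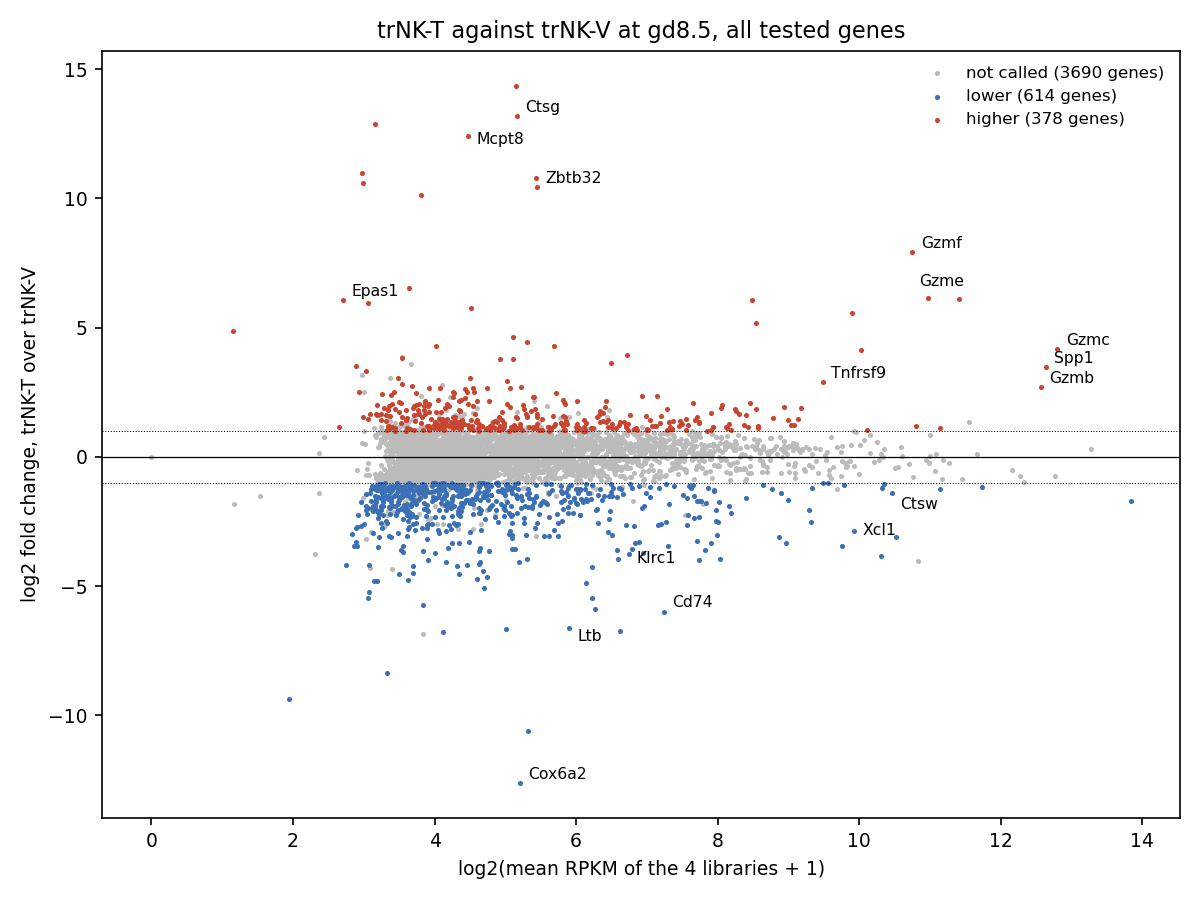
Log2 fold change of trNK-T over trNK-V against the log2 of the mean RPKM of the 4 libraries plus 1, 1 point for each of the 4682 tested genes, with the 378 called higher in red, the 614 called lower in blue and the fold limit as dotted lines. Gzmb, Gzmc and Spp1 sit at the far right among the most abundant transcripts and above the line, while the genes with the largest falls, such as Cox6a2 and Ltb, are of middle abundance.

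The granzyme genes gave the largest change by amount of transcript. Of the 11 genes of the granzyme and perforin list, 9 were tested, 1 of them through trNK-T alone. Of the 9, 7 were called, all of them higher (77.8% against 8.07% of all tested genes). The median log2 fold change of the 9 was 4.16 where that of all tested genes was -0.01. Of the 7 calls, 4 were left without trNK-T replicate 2. Counts of Gzma to Gzmg together made up 0.449% and 0.528% of all counts in trNK-V, 1.34% and 2.36% in trNK-D, and 4.06% and 4.96% in trNK-T. Prf1, the pore-forming perforin, was at 266 and 226 RPKM in trNK-V and 844 and 984 in trNK-T, a log2 fold change of 1.9 (SE 0.22, adjusted p = 0.00351). Gzmb, the granzyme that activates caspases, was at 1389 and 1845 against 7896 and 13081 RPKM (2.70, SE 0.35, adjusted p = 0.00422). Both genes were well separated between the subsets and were called in every leave-out.

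The other granzymes of the same cluster rose further. Gzmc was at 812.4 and 699 RPKM in trNK-V and 15668 and 11339 in trNK-T (4.16, SE 0.29, adjusted p = 0.00101), so that it was level with Gzmb in trNK-T. Gzme was at 46.5 and 65.5 against 3503 and 4379 RPKM (6.14, SE 0.27, adjusted p = 0.000273), and it had the lowest adjusted p of the list. Gzmd, Gzmf and Gzmg were uneven between the 2 trNK-V libraries, with replicate 2 the higher in each. Gzmd was at 7.46 and 147 against 4868 and 5865 RPKM (6.11, SE 1.29, adjusted p = 0.0154), and Gzmf at 0.353 and 27.7 against 3517 and 3351 (7.93, SE 1.56, adjusted p = 0.0126). Gzmg was at 0.285 and 78.7 against 1580 and 2164 RPKM (5.56, SE 1.69, adjusted p = 0.0437). Without trNK-T replicate 2 the adjusted p of Gzmd, Gzmf and Gzmg was 0.064, 0.0504 and 0.132, and that of Gzmg was also above the threshold without trNK-T replicate 1 (0.0836) or either trNK-D library (0.0717 and 0.0768).

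Gzma, which lies apart from this cluster, was at 1712 and 1694 RPKM in trNK-V and 2630 and 5958 in trNK-T, with the trNK-D libraries at 1261 and 4995. The spread between replicates was of the size of the difference, and it was not called (1.34, SE 0.64, adjusted p = 0.143), except without trNK-D replicate 1 (0.0487). Gzmk was low throughout, at 0 and 11.7 against 29.1 and 29.3 RPKM, and was not called (adjusted p = 0.441). No 150-base word of any granzyme transcript occurred in another granzyme, so reads of that length could be assigned.

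**Figure D2:**
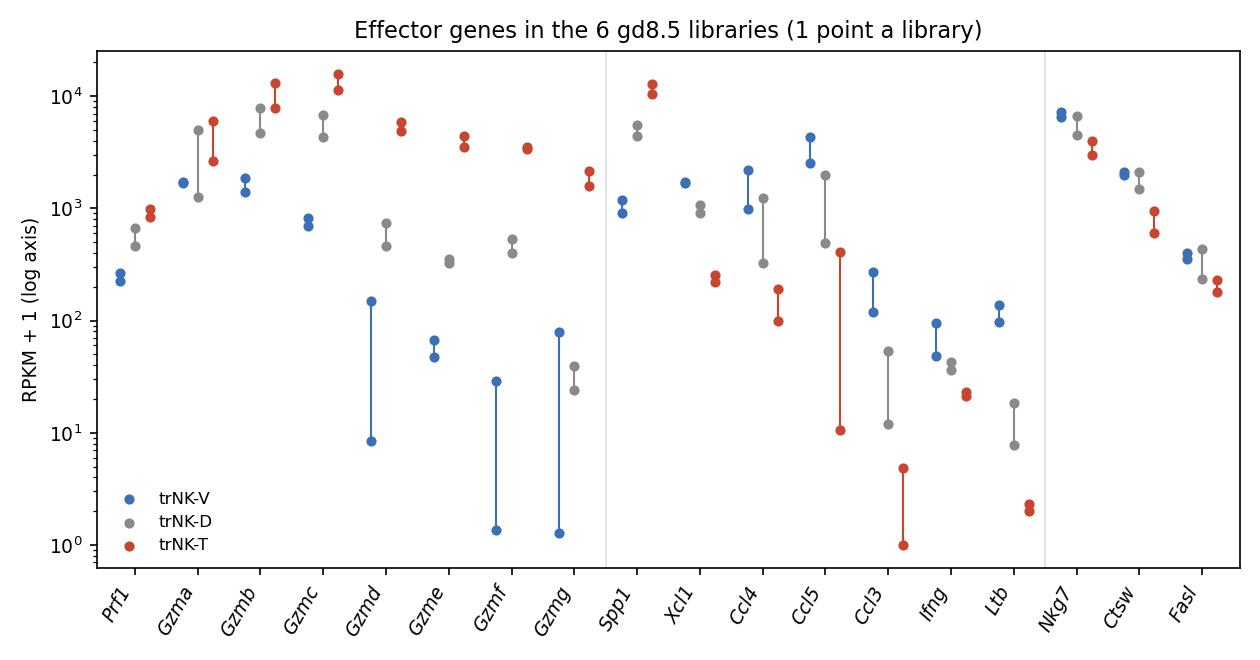
RPKM plus 1 on a log axis of 18 effector genes in the 6 gd8.5 libraries, 1 point a library, with a line joining the 2 libraries of a subset (blue trNK-V, grey trNK-D, red trNK-T). The granzymes at the left rise from trNK-V to trNK-T except Gzma, whose replicates spread widely, while the chemokines and Ltb in the middle fall and Spp1 rises.

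By position, the genes from Mcpt8 to Gzmb on chromosome 14 (mm10, chr14:56082166-56262260) formed a block of 180 kb, in which the tested genes changed together. Gzmn, within the block and not tested, was at 0 and 4.68 RPKM in trNK-V and 4.49 and 3.83 in trNK-T, so its libraries overlapped. Of the 16 genes of the block, 13 had a count and 8 were tested, all 8 called higher (8.07% of all tested genes were), at a median of 6.12 on the log2 scale. Ctsg and Mcpt8 passed the filter through trNK-T alone, so these had to differ. The nearest tested genes outside the block were Ripk3, 293 kb to one side (0.32, adjusted p = 0.396), and Mphosph8, 406 kb to the other (0.27, adjusted p = 0.421), and neither was called. The borders of the block were set after the values were seen, so the count describes it only. Within it, Ctsg (cathepsin G, a serine protease known from neutrophil granules) had no count in the 2 trNK-V or the 2 trNK-D libraries and 77.3 and 62.4 RPKM in trNK-T, at least 367-fold higher. Mcpt8, a protease known from basophils, had no count in trNK-V, 2.99 and 12 RPKM in trNK-D and 39.7 and 45.4 in trNK-T, at least 216-fold higher. Both of these bounds set trNK-V at the floor of 3 counts a library, and both genes were called in every leave-out. The other mast cell and basophil genes of the marker list did not move to such levels: Mcpt4, Tpsb2 and Tpsab1 were at 0 in all 6 libraries, and Cpa3 was at 0 in trNK-V and at 4.68 and 4.67 RPKM in trNK-T, at least 36.1-fold higher.

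**Figure D3:**
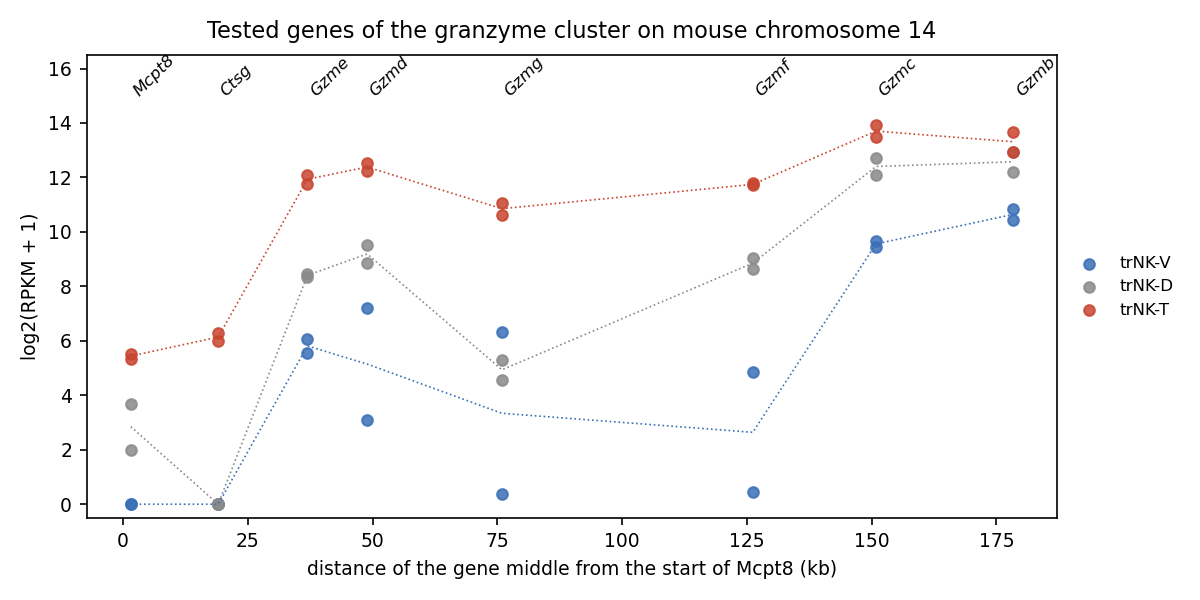
Log2(RPKM + 1) of the 8 tested genes of the chromosome 14 granzyme cluster against the distance of each gene's middle from the start of Mcpt8 in kb, 1 point a library, with a dotted line through the mean of each subset (blue trNK-V, grey trNK-D, red trNK-T). Both trNK-T libraries lie above both trNK-V libraries at all 8 genes, as they did for 36.5% of all tested genes, and Ctsg is at 0 in trNK-V and trNK-D.

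Of 21 listed genes of granule release, granzyme inhibitors and death ligands, 15 were tested, 1 was called higher and 2 lower, with a median of -0.34, and the 20% called was near the 21.2% of all tested genes. Serpinb6a, a serine protease inhibitor, rose from 13.8 and 16 to 34.9 and 28.8 RPKM (1.10, SE 0.21, adjusted p = 0.0111), a call that was lost without trNK-T replicate 1 (adjusted p = 0.0568). Serpinb9, the inhibitor of granzyme B, was at 200 and 172 against 345 and 285 RPKM (0.76, SE 0.22), under the fold limit. Nkg7, a granule membrane protein needed for release, was among the most abundant transcripts and was at 7267 and 6454 against 3944 and 2999 RPKM (-0.98, SE 0.22), just inside the limit.

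Ctsw, a cysteine protease of cytotoxic lymphocytes, fell from 2092 and 1985 to 950 and 606 RPKM (-1.39, SE 0.26, adjusted p = 0.0113), a call lost without either trNK-V library or trNK-T replicate 2 (adjusted p 0.0515 to 0.0588). The death ligand Tnfsf10 (TRAIL) fell from 17.6 and 14.2 to 6.72 and 2.27 RPKM (-1.82, adjusted p = 0.034), and the call was lost without either trNK-V library, trNK-D replicate 2 or trNK-T replicate 2 (adjusted p 0.0527 to 0.113). Fasl was at 396 and 355 against 228 and 178 RPKM and was not called (-0.88, adjusted p = 0.0551).

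Among secreted proteins, Spp1 rose. The list held 31 genes, of which 11 were tested, Ccl1 through trNK-T alone and 2 through trNK-V alone, Ltb among them. Of the 11, 2 were called higher (18.2%, against 8.07% of all tested genes) and 6 lower (54.5%, against 13.1%), with a median of -1.87. Of the 8 calls, 4 were left without trNK-V replicate 2 and 5 without trNK-T replicate 2. Spp1 (osteopontin), a secreted matrix and signalling protein, was at 1185 and 903 RPKM in trNK-V, 5539 and 4413 in trNK-D and 10388 and 12936 in trNK-T (3.49, SE 0.21, adjusted p = 0.000569). It took 1.71% and 2.13% of all counts in trNK-T against 0.195% and 0.149% in trNK-V, the 3 subsets did not overlap, and it was called in every leave-out. Ccl1, the ligand of CCR8, had no count in trNK-V and 110 and 28.3 RPKM in trNK-T, at least 829-fold higher, and the call was lost without trNK-V replicate 2 (adjusted p = 0.0523).

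Xcl1, which attracts cross-presenting dendritic cells, fell from 1732 and 1699 to 253 and 218 RPKM (-2.86, SE 0.17, adjusted p = 0.000569). Ltb, the membrane partner of lymphotoxin, fell from 95.6 and 136 to 1.01 and 1.33 RPKM (-6.63, SE 0.57, adjusted p = 0.00176). Both were called in every leave-out, with no overlap between any 2 of the subsets. The other chemokines were less even between replicates. Ccl4 was at 984 and 2181 against 188 and 99.1 RPKM (-3.46, SE 0.72, adjusted p = 0.0151), with adjusted p = 0.0727 without trNK-V replicate 2 and 0.103 without trNK-T replicate 2. Ccl3 was at 118 and 267 against 0 and 3.85 RPKM (-6.72, SE 1.43, adjusted p = 0.0158), with adjusted p = 0.0791 without trNK-V replicate 2. Ccl5 was at 2530 and 4319 against 404 and 9.66 RPKM, and the gap between the 2 trNK-T libraries left it outside the test (-4.05, SE 1.5, adjusted p = 0.0756).

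Ifng, the main macrophage-activating cytokine of NK cells, fell from 47.5 and 94.7 to 20.2 and 21.9 RPKM (-1.76, SE 0.36, adjusted p = 0.0138), and the call was lost without trNK-V replicate 2, trNK-T replicate 1 or trNK-T replicate 2 (adjusted p 0.0534 to 0.0838). The remaining called member, Il16, fell from 20.3 and 23.4 to 7.15 and 4.76 RPKM (-1.87, adjusted p = 0.00666) and was at adjusted p = 0.0506 without trNK-T replicate 2. Of the 31 listed genes, 14 were under 1 RPKM in both trNK-T libraries.

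Of 32 other proteases and matrix genes, 11 were tested, with 2 called higher, 1 lower and a median of 0.01, so that 27.3% were called against 21.2% of all tested genes. Besides Ctsg, the metalloprotease Adam8 rose from 13.1 and 16.7 to 44.9 and 41.5 RPKM (1.54, SE 0.20, adjusted p = 0.00417). Ctss, a cathepsin of antigen processing, fell from 60.1 and 56.2 to 14.2 and 15.3 RPKM (-1.98, SE 0.23, adjusted p = 0.00361). The lysosomal Ctsd was at 482 and 480 against 511 and 454 RPKM. All 3 of the called members were called in every leave-out.

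Among the NK receptors most calls went the other way from those of the granzymes. Of the tested receptors and adapters, 1 passed the filter through trNK-T alone and 2 through trNK-V alone. Of 43 listed receptors and adapters, 37 were tested, 4 were called higher and 20 lower (54.1% lower against 13.1% of all tested genes), with a median of -1.54, and 15 of the 24 calls held in every leave-out. The CD94 and NKG2 family fell together: Klrc1 (NKG2A), an inhibitory partner of CD94, fell from 185 and 210 to 16.1 and 12.9 RPKM (-3.77, SE 0.19, adjusted p = 0.000494). Klrc2 fell from 42.4 and 47.3 to 2.32 and 2.81 RPKM (-4.13, SE 0.24, adjusted p = 0.000569), and Klrc3 from 47.7 and 40.2 to 2.98 and 4.01 (-3.65, SE 0.48, adjusted p = 0.00423). Between 2.48% and 7.34% of the 150-base words of these 3 transcripts occurred in another of them, so a small part of their reads could not be told apart. Klrd1 (CD94) itself fell less, from 721 and 834 to 212 and 277 RPKM (-1.67, SE 0.29, adjusted p = 0.00885), and was at adjusted p = 0.0584 without trNK-V replicate 2.

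The activating receptor Klrk1 (NKG2D) fell from 240 and 281 to 36.6 and 54.7 RPKM (-2.51, SE 0.26, adjusted p = 0.00256). Its adapter Hcst (DAP10) fell from 454 and 448 to 142 and 96.7 RPKM (-1.92, SE 0.27, adjusted p = 0.00505). The adapters of other activating receptors differed from it: Tyrobp (DAP12) was at 5215 and 5584 against 4511 and 3059 RPKM (-0.51, adjusted p = 0.144) and Fcer1g at 3241 and 2976 against 3629 and 3083 (0.11, adjusted p = 0.63), and neither was called. Cd160 fell from 181 and 175 to 19.2 and 37.3 RPKM (-2.65, SE 0.33, adjusted p = 0.00403).

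Of the 8 tested Ly49 genes of the list (Klra1, Klra3, Klra4, Klra5, Klra7, Klra8, Klra9 and Klra10), which encode receptors for MHC class I, 6 were called lower, as were 13.1% of all tested genes. Klra4 fell from 684 and 1130 to 68.6 and 109 RPKM (-3.35, SE 0.36, adjusted p = 0.00303), and Klra8 (Ly49H) from 769 and 1256 to 238 and 244 (-2.07, SE 0.26, adjusted p = 0.00408). Klra7 was at 1050 and 833 against 596 and 562 RPKM (-0.70, SE 0.18) and Klra5 at 77.1 and 142 against 47.9 and 120 (-0.39, SE 0.49), and these 2 were not called. Klra1 lost its call without either trNK-T library (adjusted p = 0.0556 and 0.0815) and Klra10 without trNK-V replicate 2 or trNK-T replicate 2 (0.055 and 0.0584). By position, from Klrb1a to Klra1 on chromosome 6 (mm10, chr6:128609227-130386874), 28 genes were tested, of which 20 were called lower, 0 higher and 8 not called, with a median of -2.34, where 13.1% of all tested genes were called lower and 8.07% higher. These borders, too, were set after the values were seen.

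The 4 receptors that rose were Klrg1, Ctla4, Havcr2 and Fcgr3. Klrg1, an inhibitory receptor for cadherins that marks mature NK cells, was at 185 and 225 RPKM in trNK-V, 449 and 483 in trNK-D and 813 and 739 in trNK-T (1.92, SE 0.17, adjusted p = 0.00176), and was the 1 of the 4 called in every leave-out. Ctla4 rose from 1.64 and 7.43 to 57.6 and 67.3 RPKM (3.78, SE 0.68, adjusted p = 0.00926; 0.0528 without trNK-T replicate 2). Havcr2 (TIM-3) rose from 0.357 and 4.87 to 43.8 and 84.8 RPKM (4.62, SE 1.24, adjusted p = 0.0304; 0.0597 to 0.135 without trNK-V replicate 1 or either trNK-T library). Fcgr3 (CD16) rose from 70.7 and 125 to 229 and 212 RPKM (1.17, SE 0.28, adjusted p = 0.0206; 0.0761 and 0.0904 without a trNK-T library, and under the fold limit without trNK-V replicate 1).

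**Figure D4:**
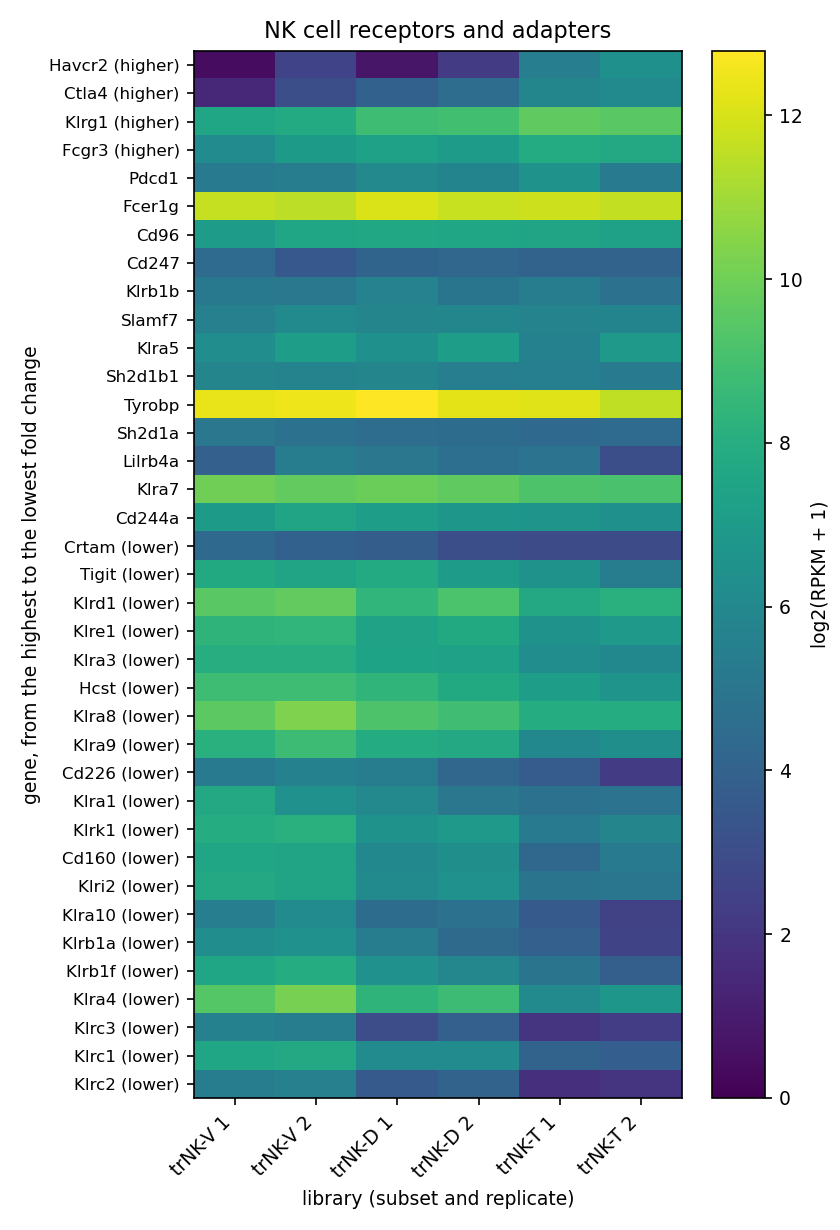
Log2(RPKM + 1) of the 37 tested NK receptors and adapters in the 6 gd8.5 libraries, ordered from the highest to the lowest fold change of trNK-T over trNK-V, with called genes marked. The 4 genes called higher are at the top, the 20 called lower fill the bottom rows, and Fcer1g and Tyrobp stay bright in all 6 libraries.

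Of 22 genes of TNF-family and CD28-family co-stimulation, 12 were tested, 1 of them through trNK-V alone. Of the 12, 2 were called higher (16.7%, against 8.07% of all tested genes) and 5 lower (41.7%, against 13.1%), with a median of -0.87, where 1 of the 2 higher was Tnfrsf9 of the sort gate. Of the 7 calls, 4 were left without trNK-V replicate 1, 2 without trNK-V replicate 2 and 2 without trNK-T replicate 2. Cd27, a receptor lost on mature NK cells, fell from 77.0 and 56.8 to 4.96 and 2.90 RPKM (-4.08, SE 0.42, adjusted p = 0.00256) and was called in every leave-out. Icos rose from 14.1 and 13.1 to 34.3 and 24.3 RPKM (1.11, SE 0.30, adjusted p = 0.0325), a call lost without any 1 of the trNK-V or trNK-T libraries (adjusted p 0.0788 to 0.16). Of 27 cytokine receptors, 13 were tested, 3 of them through trNK-V alone, with 1 called higher (7.69%, against 8.07%), 9 lower (69.2%, against 13.1%) and a median of -1.85. Of the 10 calls, 5 were left without trNK-V replicate 2 and 4 without trNK-T replicate 2, and 4 held in every leave-out. These 4 were Il21r, Il18rap, Il10ra and Ifnar2.

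Il21r, the receptor of IL-21, fell from 49.0 and 53.2 to 13.9 and 6.72 RPKM, with trNK-D at 50.8 and 32.8 (-2.31, SE 0.37, adjusted p = 0.00698). Il18rap, the signalling chain for IL-18, fell from 15.5 and 12.6 to 0.432 and 1.14 RPKM (-4.17, SE 0.49, adjusted p = 0.00373). The chains that bind IL-2 and IL-15 did not pass both limits: Il2rb was at 433 and 398 against 274 and 270 RPKM (-0.61, SE 0.16) and Il2rg at 427 and 520 against 392 and 231 (-0.60, SE 0.30). The 1 receptor that rose was Il12rb1, from 7.53 and 8.48 to 14.2 and 18.3 RPKM (1.02, SE 0.25, adjusted p = 0.022; 0.0516 to 0.152 without any 1 of the trNK-V or trNK-T libraries). Among 15 JAK-STAT kinases and feedback genes, 10 were tested, 2 of them through trNK-V alone. All 10 had negative fold changes, with a median of -1.07, and 4 were called (40% lower, against 13.1% of all tested genes). They were Pim2 (-2.57, SE 0.30, adjusted p = 0.00376), Jak1 (-1.19, SE 0.17), Ptpn6 (SHP-1; -1.19, SE 0.19) and Socs1 (-1.43, SE 0.36), of which Socs1 lost its call without trNK-V replicate 1 (adjusted p = 0.11) or trNK-T replicate 2 (0.14).

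Several transcription factors of NK cell development and function were lower in trNK-T, while Eomes, Id2, Runx3 and Stat3 were not called. Of 44 listed factors, 22 were tested, Epas1 through trNK-T alone and 2 through trNK-V alone. Of the 22, 2 were called higher (9.09%, near the 8.07% of all tested genes) and 9 lower (40.9%, against 13.1%), with a median of -0.72. Of the 11 calls, 7 were left without trNK-V replicate 2 and 7 without trNK-T replicate 2. Tcf7 (TCF-1) fell from 36.0 and 53.7 to 3.01 and 0.321 RPKM (-4.72, SE 0.86, adjusted p = 0.01; 0.0539 without trNK-V replicate 2). Tox, needed for NK cell development, fell from 23.2 and 26.9 to 3.44 and 2.01 RPKM (-3.20, SE 0.41, adjusted p = 0.00408). Tbx21 (T-bet), the partner of Eomes in NK maturation, fell from 62.3 and 56.8 to 21.9 and 17.2 RPKM (-1.60, SE 0.22, adjusted p = 0.00496).

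Ets1 fell from 81.4 and 94.9 to 22.3 and 21.6 RPKM (-2.0, SE 0.18, adjusted p = 0.00176), and Stat4, which carries the IL-12 signal, from 53.2 and 72.3 to 12.6 and 11.9 (-2.35, SE 0.22, adjusted p = 0.00186). Tox, Tbx21, Ets1, Stat4, Ikzf3 and Epas1 were called in every leave-out. The 2 factors that rose were Epas1 and Hif1a. Epas1 (HIF-2alpha, an oxygen-regulated subunit of the hypoxia-inducible factors) rose from 0.0366 and 0.295 to 10.3 and 11.6 RPKM (6.05, SE 0.82, adjusted p = 0.0045), with trNK-D at 0.526 and 0.660. Hif1a rose from 10.1 and 9.76 to 22.2 and 25.6 RPKM (1.27, SE 0.19, adjusted p = 0.0054; 0.0525 without trNK-T replicate 2).

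Of 29 adhesion and homing genes, 16 were tested, 1 of them through trNK-T alone. Of the 16, 7 were called lower (43.8%, against 13.1% of all tested genes) and 1 higher (6.25%, against 8.07%), with a median of -1.0. Of the 8 calls, 5 were left without either trNK-V library and 4 without trNK-T replicate 2. Cxcr3, a receptor that guides lymphocytes to inflamed tissue, fell from 147 and 122 to 5.44 and 3.70 RPKM (-4.86, SE 0.29, adjusted p = 0.000569). Cd2 fell from 380 and 456 to 34.0 and 34.8 RPKM (-3.60, SE 0.25, adjusted p = 0.00101). Both were called in every leave-out. The integrin gene Itgb3 rose from 2.37 and 0.205 to 14.6 and 11.5 RPKM (3.34, SE 0.96, adjusted p = 0.0374), and was above the threshold without either trNK-D or either trNK-T library (adjusted p 0.0562 to 0.119).

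Of the tested genes of DNA replication and of mitosis, 12.1% and 13.6% were called higher, against 8.07% of all tested genes, and fold changes were positive for 49.3% of all tested genes. Of 50 replication genes, 33 were tested, 29 had positive fold changes, 4 were called higher and 0 lower (Gins1, Prim1, Tyms and Dut; median 0.68), with 2 left without trNK-V replicate 1, 1 without trNK-V replicate 2, 2 without trNK-T replicate 1 and 0 without trNK-T replicate 2. Among the 33, 4 passed the filter through trNK-T alone and 1 through trNK-V alone. Of 34 mitotic genes, 22 were tested, all 22 had positive fold changes, and 3 were called higher (Aurkb, Bub1b and Cks1b; median 1.12), with 0 called without any 1 of the trNK-V or trNK-T libraries. Among the 22, 11 passed the filter through trNK-T alone. The replicates were uneven: Ccnb1, a cyclin of mitosis, was at 12.9 and 18.2 RPKM in trNK-V, 3.74 and 50.3 in trNK-D and 27.3 and 57.3 in trNK-T, and was not called (adjusted p = 0.289) unless trNK-D replicate 1 (0.0426) or trNK-D replicate 2 (0.0465) was left out.

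In the list of growth arrest and G1 regulators, 13 of 20 genes were tested, 2 through trNK-T alone and 1 through trNK-V alone. Of the 13, 2 were called higher (15.4%, against 8.07% of all tested genes) and 6 lower (46.2%, against 13.1%), with a median of -1.07. Of the 8 calls, 5 were left without trNK-V replicate 1, 4 without trNK-V replicate 2 and 2 without trNK-T replicate 2. Ccnd3 (cyclin D3) fell from 41.4 and 32.4 to 14.2 and 13.9 RPKM (-1.39, SE 0.18, adjusted p = 0.00429), and the CDK inhibitor Cdkn2d from 73.7 and 88.9 to 31.9 and 38 (-1.22, SE 0.20, adjusted p = 0.00698). Those 2 were the members called in every leave-out. Ccne1 (cyclin E1) rose from 3.58 and 4.17 to 12.4 and 21.2 RPKM (2.12, SE 0.37, adjusted p = 0.009), and Gadd45g, a stress-induced inhibitor of growth, from 101 and 167 to 439 and 692 (2.07, SE 0.37, adjusted p = 0.00926). Without trNK-T replicate 2 these 2 were at adjusted p = 0.0744 and 0.059.

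Of 33 apoptosis genes, 18 were tested, 3 of them through trNK-T alone and 2 through trNK-V alone. Of the 18, 2 were called higher (11.1%, against 8.07% of all tested genes) and 3 lower (16.7%, against 13.1%), with a median of -0.26. Of the 5 calls, 2 were left without trNK-V replicate 2, 2 without trNK-T replicate 2, and 3 without trNK-V replicate 1 or either trNK-D library. Bcl2, the survival factor, fell from 72.8 and 66.0 to 24.7 and 18.2 RPKM (-1.69, SE 0.24, adjusted p = 0.00505). Cycs (cytochrome c) rose from 64.7 and 57.6 to 147 and 142 RPKM (1.25, SE 0.17, adjusted p = 0.00481). Both were called in every leave-out. Bax and Bid were not called.

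The chaperones and folding enzymes of the endoplasmic reticulum (ER) rose together. When unfolded protein builds up in the ER, ATF6 and XBP1 are known to switch on chaperone genes through the ER stress response element, a pair of short motifs with any 9 bases between them, CCAAT and CCACG. Of 32 listed ER genes, 24 were tested, 15 were called higher (62.5% against 8.07% of all tested genes) and 2 lower, with a median of 1.20, and 13 of the 17 calls held in every leave-out. The promoters of 4 of the genes that rose are shown because they hold this element. Each run is the 250 bases before the start of the gene in RefSeq's GRCm38.p6, on the gene's own strand, with the 2 outer motifs of the element in capitals.
Hspa5 (chr2:34771840-34772089, + strand): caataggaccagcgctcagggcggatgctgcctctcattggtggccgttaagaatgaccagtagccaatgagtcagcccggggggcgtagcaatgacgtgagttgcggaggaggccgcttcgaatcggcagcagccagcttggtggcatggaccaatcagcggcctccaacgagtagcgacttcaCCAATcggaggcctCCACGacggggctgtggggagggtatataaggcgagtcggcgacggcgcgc
Hsp90b1 (chr10:86705445-86705694, - strand): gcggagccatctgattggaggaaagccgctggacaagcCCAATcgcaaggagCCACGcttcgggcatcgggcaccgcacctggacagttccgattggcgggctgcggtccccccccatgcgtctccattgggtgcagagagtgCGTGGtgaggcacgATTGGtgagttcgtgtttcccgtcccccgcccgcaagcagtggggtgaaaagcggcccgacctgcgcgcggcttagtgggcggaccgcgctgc
Pdia6 (chr12:17266339-17266588, + strand): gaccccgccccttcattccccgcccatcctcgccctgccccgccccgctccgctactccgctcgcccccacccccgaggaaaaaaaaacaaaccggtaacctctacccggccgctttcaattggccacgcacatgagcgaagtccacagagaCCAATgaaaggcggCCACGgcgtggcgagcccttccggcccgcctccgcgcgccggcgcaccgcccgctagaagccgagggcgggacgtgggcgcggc
Creld2 (chr15:88819396-88819645, + strand): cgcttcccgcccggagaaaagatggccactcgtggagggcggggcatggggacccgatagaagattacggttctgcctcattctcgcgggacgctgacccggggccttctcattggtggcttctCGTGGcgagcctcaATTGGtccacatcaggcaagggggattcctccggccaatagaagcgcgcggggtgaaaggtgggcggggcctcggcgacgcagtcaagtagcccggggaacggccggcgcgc
In Hsp90b1 the element occurred 2 times, once on each strand, and in Creld2 on the opposite strand to the gene. Searched on both strands, it was found in 35 of 27025 mouse promoters of this length (0.130%), in 8 of the 3473 tested genes with a promoter (0.230%), and in 9 of the 28 ER list members with one. Of the 13 such members called higher, 6 held it, and of the 15 others, 3 did (Dnajc3, Syvn1 and Derl3). These others were not called, called lower or below the filter, which does not mean that none rose. Dnajc3 had a log2 fold change of 0.86, and Derl3 had 3 counts in trNK-V and 163 in trNK-T. A match describes these letters and not the binding of a factor.

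Hspa5 (BiP), the main ER chaperone, was at 251 and 299 RPKM in trNK-V and 655 and 839 in trNK-T (1.44, SE 0.20, adjusted p = 0.00512). Hsp90b1 (GRP94) rose from 138 and 127 to 414 and 534 RPKM (1.84, SE 0.18, adjusted p = 0.00234), and the disulfide isomerase Pdia6 from 121 and 91.2 to 375 and 477 (2.01, SE 0.21, adjusted p = 0.00256). Creld2, an ER stress-induced folding factor, rose from 87.1 and 64.7 to 295 and 355 RPKM (2.1, SE 0.20, adjusted p = 0.00201). In all 4 the trNK-D libraries lay between, and all 4 were called in every leave-out. The 2 members called lower are known from the other branch of the response, which acts through eIF2alpha and ATF4. Whether that branch changed as a whole was not tested, and Trib3 of the same list rose. It had 0 counts in trNK-V and 160 in trNK-T, at least 27.9-fold higher. Ppp1r15a (GADD34) fell from 85.9 and 181 to 27.2 and 18.5 RPKM (-2.55, SE 0.39, adjusted p = 0.00613; 0.0523 without trNK-T replicate 2), and Ddit3 (CHOP) from 53.6 and 38.5 to 17.3 and 8.86 (-1.81, SE 0.50, adjusted p = 0.0325; 0.0825 to 0.166 without either trNK-V library or trNK-T replicate 2). Atf4 itself was at 62.4 and 74.8 against 61.3 and 52.5 RPKM and Xbp1 at 32.0 and 58.0 against 41.3 and 104, and neither was called.

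Of 25 genes of glycolysis and the response to low oxygen, 13 were tested, 1 of them through trNK-T alone. Of the 13, 7 were called higher (53.8%, against 8.07% of all tested genes) and 0 lower, with a median of 1.02. Pgk1 rose from 69.1 and 66.2 to 213 and 273 RPKM (1.85, SE 0.18, adjusted p = 0.00232) and Aldoa from 232 and 192 to 453 and 496 (1.17, SE 0.17, adjusted p = 0.0054), and these 2 were called in every leave-out. The other 5 (Tpi1, Gapdh, Pgam1, Eno1 and Ldha) had fold changes of 1.02 to 1.49 and each lost the call without trNK-V replicate 2 (adjusted p 0.0635 to 0.0839) or trNK-T replicate 2 (0.0599 to 0.0924). The respiratory chain moved less: of 76 tested subunits 62 had positive fold changes with a median of 0.33, 0 were called higher and 1 lower (1.32%, against 13.1% of all tested genes). That 1 was Cox6a2, the muscle form of a subunit of cytochrome c oxidase, at 37.2 and 106 RPKM in trNK-V, 30.0 and 56.6 in trNK-D and no count in trNK-T, at least 208-fold lower, and called in every leave-out. Of 75 tested cytosolic ribosomal protein genes, 2 were called higher (2.67%, against 8.07% of all tested genes) and 2 lower (2.67%, against 13.1%), with a median of 0.20, and 1 of the 4 calls was left without trNK-V replicate 1, trNK-V replicate 2 or trNK-T replicate 2.

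Of 22 genes of metal binding and oxidative stress, 11 were tested, 2 of them through trNK-T alone, and 4 called higher (36.4%, against 8.07% of all tested genes), with a median of 0.68. Mt1, a metallothionein that binds zinc and copper, was at 16 and 23.7 RPKM in trNK-V, 357 and 241 in trNK-D and 970 and 481 in trNK-T (5.2, SE 0.45, adjusted p = 0.00176). Tfrc, the transferrin receptor, rose from 3.38 and 3.13 to 10.0 and 15.8 RPKM (1.99, SE 0.29, adjusted p = 0.0054), and both were called in every leave-out. The other 2, Prdx1 (1.05, SE 0.20, adjusted p = 0.0121) and Ftl1 (1.05, SE 0.22, adjusted p = 0.0153), lost their calls without trNK-V replicate 2 (adjusted p = 0.07 and 0.0539) or trNK-T replicate 2 (0.0725 and 0.0868), and Ftl1 also without trNK-V replicate 1 (0.0673).

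The interferon-induced genes split. Of 34, 18 were tested, 1 of them (Ifitm1) through trNK-T alone. Of the 18, 9 were called lower (50%, against 13.1% of all tested genes) and 3 higher (16.7%, against 8.07%), with a median of -1.57. Of the 12 calls, 5 were left without trNK-V replicate 2 and 5 without trNK-T replicate 2, and 3 held in every leave-out. Those 3 were the transcription factors Irf1 (83.2 and 117 against 32.4 and 31.8 RPKM; -1.64, SE 0.22, adjusted p = 0.00457), Irf7 (43.4 and 49.9 against 9.96 and 8.75; -2.31, SE 0.32, adjusted p = 0.00476) and Irf9 (31.2 and 23.8 against 10.7 and 6.42; -1.68, SE 0.28, adjusted p = 0.00783). The 3 that rose were all membrane proteins of the Ifitm family, known for blocking virus entry. Ifitm2 was at 155 and 68.3 RPKM in trNK-V, 310 and 1084 in trNK-D and 1654 and 2275 in trNK-T (4.14, SE 0.69, adjusted p = 0.00771; 0.0534 without trNK-V replicate 2). Ifitm1 rose from 4.68 and 16.4 to 504 and 909 RPKM (6.07, SE 1.48, adjusted p = 0.023; 0.0869 to 0.102 without either trNK-V library or trNK-T replicate 2) and Ifitm3 from 233 and 113 to 378 and 384 (1.15, SE 0.31, adjusted p = 0.0317; 0.0507 to 0.13 without any 1 library but trNK-V replicate 1). Ifitm6 went the other way, at 3.94 and 7.4 RPKM in trNK-V and no count in trNK-T, at least 21.9-fold lower.

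Heat shock and immediate early genes respond to handling and to activation alike. Of 27, 22 were tested, Ier3 through trNK-T alone and 2 through trNK-V alone. Of the 22, 11 were called lower (50%, against 13.1% of all tested genes) and 3 higher (13.6%, against 8.07%), with a median of -2.04. Of the 14 calls, 5 were left without trNK-V replicate 2 and 6 without trNK-T replicate 2, and 3 held in every leave-out (Jun, Ier5 and Ier3). The summed level of the list was 2905 and 5036 RPKM in trNK-V, 2126 and 1966 in trNK-D and 1796 and 1240 in trNK-T, and its part in the other changes was not tested. Jun fell from 150 and 260 to 26.1 and 15.1 RPKM (-3.32, SE 0.37, adjusted p = 0.00323). Fos fell from 175 and 398 to 42.3 and 10.5 RPKM (-3.44, SE 0.72, adjusted p = 0.0151; 0.0727 without trNK-V replicate 2 and 0.0526 without trNK-T replicate 2). Hspa1a, a heat shock protein, was at 50.7 and 229 against 3.82 and 11.0 RPKM (-4.24, SE 0.96, adjusted p = 0.0185; 0.0718 to 0.0853 without trNK-V replicate 2 or either trNK-T library), and 38.1% of its 150-base words occurred in Hspa1b. The mitochondrial chaperones Hspd1 and Hspe1 rose by 1.09 and 1.06 (SE 0.21 and 0.22, adjusted p = 0.0125 and 0.0151), and both calls were lost without trNK-V replicate 2 (0.0531 and 0.0773) or trNK-T replicate 2 (0.0805 and 0.0797), that of Hspd1 also without trNK-V replicate 1 (0.0541) and that of Hspe1 without trNK-T replicate 1 (0.0545). Ier3 had no count in trNK-V and 17.4 and 10.2 RPKM in trNK-T, at least 79.3-fold higher.

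**Figure D5:**
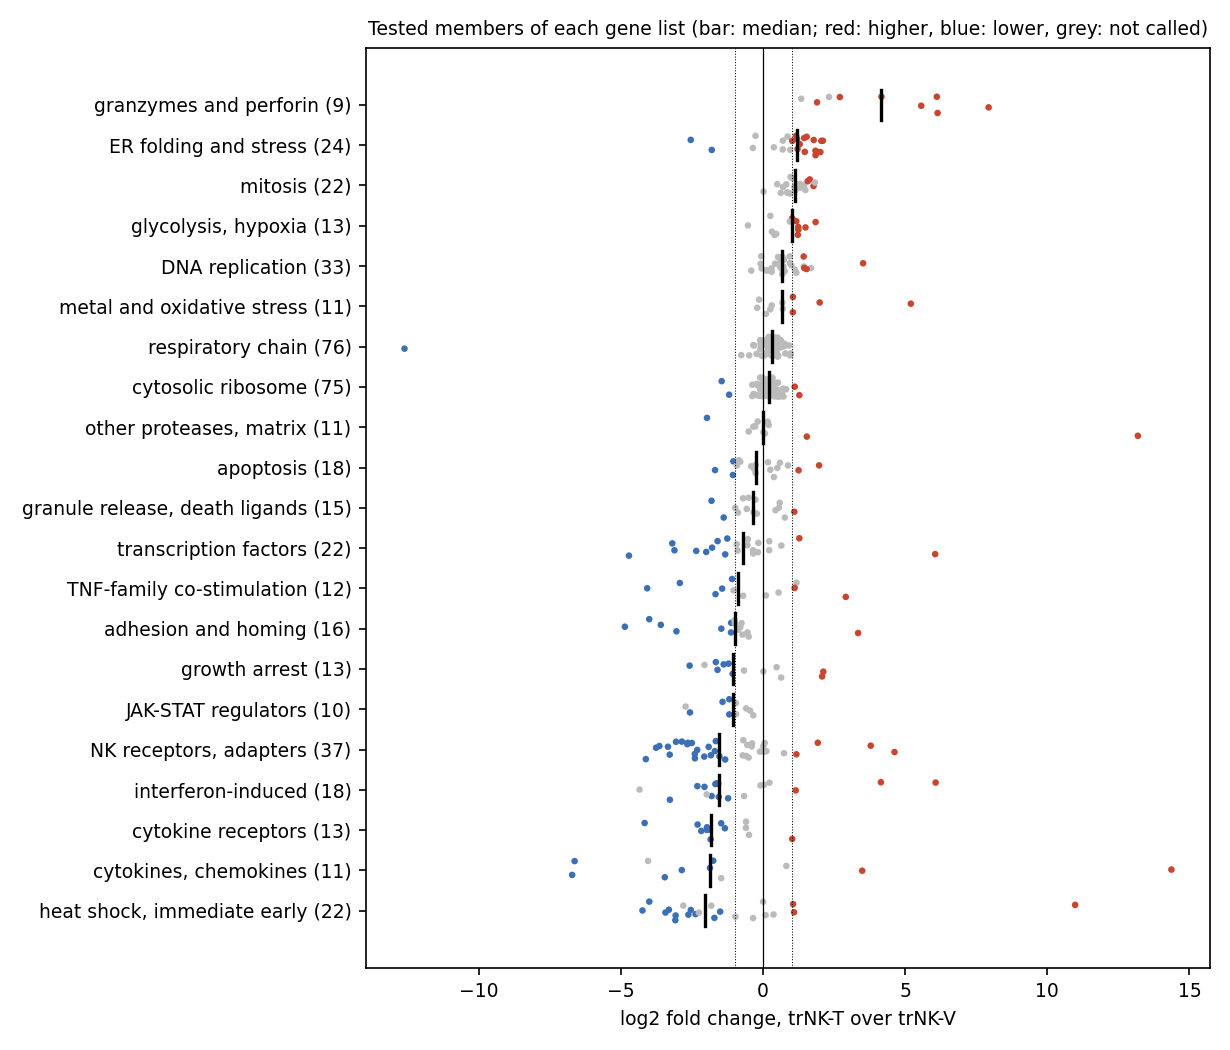
Log2 fold change of trNK-T over trNK-V for the tested members of each of 21 gene lists (the marker lists of cell types and the sort gate are not drawn), 1 point a gene (red called higher, blue called lower, grey not called), with the median as a black bar and the number of tested members in brackets. Granzymes and perforin lie at the top with a median of 4.16, ER genes follow with 1.20, and heat shock and immediate early genes are the lowest drawn with -2.04, while ribosomal and respiratory chain genes cluster near 0.

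Beyond the lists, the genes of largest change were mostly absent or nearly so from one subset. Of those named here, Anxa3, Alox5, Myo10 and Gng11 passed the filter through trNK-T alone, so these had to differ. Zbtb32, a zinc finger repressor of lymphocytes, was at 0.055 and 0.0604 RPKM in trNK-V, 14.6 and 22.3 in trNK-D and 78.4 and 91.5 in trNK-T (10.45, SE 0.43, adjusted p = 0.000273), with 2 counts in each trNK-V library. Anxa3, a membrane-binding annexin, had no count in trNK-V and 14.1 and 17.7 RPKM in trNK-T, at least 295-fold higher. Alox5, the first enzyme of leukotriene synthesis, rose from 0 and 0.503 to 27.2 and 18.1 RPKM (6.52, SE 1.15, adjusted p = 0.00905). All 3 were called in every leave-out, as was Myo10, a myosin of filopodia, which rose from 0.147 and 0.317 to 12.1 and 16.7 RPKM (5.96, SE 0.61, adjusted p = 0.00252). Gng11, a G protein subunit, was at 1.55 and 0 against 72.6 and 13.3 RPKM (5.76, SE 1.43, adjusted p = 0.0246), and lost its call without trNK-V replicate 2 (0.0797), trNK-T replicate 1 (0.0945) or trNK-T replicate 2 (0.0557).

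Of the genes that fell outside the lists, Tspan32, Phactr3, Kcna3 and Ifi213 passed the filter through trNK-V alone, so these had to differ. Among the large falls, with predicted gene models left out, were those of Tspan32, a tetraspanin, from 13.0 and 18.2 to 0.766 and 0.325 RPKM (-4.82, SE 0.63, adjusted p = 0.0042), of Phactr3, from 20.1 and 23.8 to 1.15 and 0.461 (-4.75, SE 0.58, adjusted p = 0.004), and of Kcna3, the potassium channel Kv1.3 of lymphocytes, from 23.8 and 15.7 to 1.01 and 0.665 (-4.54, SE 0.46, adjusted p = 0.00234). All 3 were called in every leave-out. Ifi213 fell from 17.6 and 12.8 to 1.02 and 0.0493 RPKM (-4.79, SE 1.02, adjusted p = 0.0158; 0.0541 and 0.0585 without a trNK-V library). Lst1 fell from 1.87 and 26.9 to 0.160 and 0.609 RPKM (-5.24, SE 1.51, adjusted p = 0.0378; 0.0539 to 0.198 without any 1 library but trNK-V replicate 1).

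Among the most abundant called transcripts, Lgals1 (galectin-1) was higher, at 1540 and 1334 against 2842 and 3351 RPKM (1.11, SE 0.19, adjusted p = 0.00881). The abundant transcripts that were lower were H2-K1, an MHC class I heavy chain, at 1762 and 1819 against 906 and 636 RPKM (-1.21, SE 0.22, adjusted p = 0.00957), and Ubb, a ubiquitin gene, at 2538 and 3801 against 1580 and 1086 (-1.25, SE 0.26, adjusted p = 0.0153). The mitochondrial ribosomal RNA mt-Rnr2 was at 1546 and 2000 against 999 and 691 RPKM (-1.07, SE 0.27, adjusted p = 0.0253). Trbd1, a T cell receptor segment whose listed length of 12 bases makes its RPKM high, was at 4396 and 5074 against 2251 and 1939 RPKM, from 814 and 855 against 407 and 276 counts (-1.17, SE 0.27, adjusted p = 0.0199). Each of these 5 lost its call without trNK-V replicate 2 (adjusted p 0.0617 to 0.139) and without trNK-T replicate 2 (0.0532 to 0.135), mt-Rnr2 also without trNK-V replicate 1 (0.0554) and Trbd1 without trNK-T replicate 1 (0.069).

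Transcripts of macrophages are given apart from the NK genes. Of 28 macrophage markers, 3 passed the expression filter and 2 of these were called, both lower in trNK-T (66.7%, against 13.1% of all tested genes). The summed level of the list was 79.1 and 412 RPKM in trNK-V, 346 and 424 in trNK-D and 36.1 and 29.1 in trNK-T. Lyz2 (lysozyme) was at 19.3 and 269 RPKM in trNK-V, 212 and 303 in trNK-D and 1.97 and 4.61 in trNK-T (-5.48, SE 1.24, adjusted p = 0.0184). Apoe, a lipid carrier made by macrophages, was at 7.88 and 91.3, 15.6 and 38.5, and 1.86 and 2.09 RPKM (-4.65, SE 1.15, adjusted p = 0.0239). Both were far higher in trNK-V replicate 2 than in replicate 1, and both calls were lost without either trNK-T library (adjusted p 0.0876 to 0.133), that of Apoe also without trNK-V replicate 2 (0.0839). Some markers were low in both subsets: Adgre1 (F4/80) was at 0 and 0.022 RPKM in trNK-V and 0.020 and 0 in trNK-T, Csf1r at 0 and 1.49 against 0 and 0, and C1qa at 1.18 and 0.548 against 0.447 and 0.081. Others were counted in trNK-V and nearly absent from trNK-T. Spi1 had 476 counts in trNK-V and 3 in trNK-T, 140-fold lower (95% interval 47.5 to 679). Ms4a6c had 467 and 3, 137-fold lower (46.6 to 667). These intervals are of counts summed over the libraries and cover counting error only. Csf1r had 102 and 0 counts. In trNK-T 22 of the 28 markers were under 1 RPKM in both libraries, and Cd14 was the exception in direction, at 10.5 and 9.65 RPKM against 1.28 and 2.27 in trNK-V, below the filter. Calls outside the macrophage and MHC class II lists numbered 990 when those genes were left out of the fit.

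The MHC class II genes, expressed by antigen-presenting cells, were lower in trNK-T in both replicates alike. Of 7, 6 were tested, 1 of them through trNK-V alone. Of the 6, 5 were called lower (83.3%, against 13.1% of all tested genes), with a median of -5.47. The summed level was 809.1 and 466 RPKM in trNK-V, 803.2 and 381 in trNK-D and 21.8 and 18.5 in trNK-T. Cd74, the invariant chain, fell from 362 and 227 to 5.18 and 4.07 RPKM (-5.98, SE 0.45, adjusted p = 0.00129), and H2-Ab1 from 198 and 99.6 to 2.96 and 2.01 (-5.89, SE 0.53, adjusted p = 0.00176). H2-Aa fell from 98.9 and 24.5 to 0.460 and 0.765 RPKM (-6.66, SE 1.02, adjusted p = 0.0061; 0.0504 without trNK-T replicate 2). The class II sum was higher in trNK-V replicate 1 and the macrophage sum in replicate 2. Which cells carried these transcripts was not tested.

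Markers of other cells were as follows. Of 12 neutrophil and monocyte markers 2 were tested, and Plac8 rose from 128 and 98.3 to 447 and 380 RPKM (1.87, adjusted p = 0.004; called in every leave-out), while Ly6c2 was at 70.1 and 62.6 against 148 and 54.4 RPKM and was not called. The list summed to 199 and 161 RPKM in trNK-V and 596 and 435 in trNK-T, and S100a9, Retnlg and Mmp8 were at 0 in all 6 libraries. Of 12 T cell markers 6 were tested and 4 were called lower in trNK-T (66.7%, against 13.1% of all tested genes; 2 left without trNK-V replicate 1, 1 without trNK-V replicate 2 and 2 without trNK-T replicate 2), led by Cd3d (50.1 and 44.9 against 3.58 and 0.743 RPKM; -4.43, SE 0.85, adjusted p = 0.0117; 0.0513 without trNK-V replicate 2 and 0.0536 without trNK-T replicate 2) and Cd3g (81.6 and 79 against 17.9 and 13.7; -2.34, SE 0.24, adjusted p = 0.00234). Cd8a was at 0 in all 6 libraries, Cd4 was at 0 in both subsets, and Cd3e was at 0 and 1.26 RPKM in trNK-V and 0 in trNK-T, at least 11-fold lower. Cd8b1 was present in trNK-V, with 309 counts there and 0 in trNK-T, at least 47.2-fold lower. The summed T cell list was 1807 and 1885 RPKM in trNK-V and 1142 and 1058 in trNK-T, most of it Trbc1. Of 12 markers of conventional NK cells and ILC1, 3 were tested and all 3 were called lower (13.1% of all tested genes were), Klra8 and Klra4 among them. The list summed to 1507 and 2471 RPKM against 314 and 357. Stromal and decidual markers summed to 56.8 and 8.80 RPKM in trNK-V and 4.84 and 1.12 in trNK-T, none of them tested. Of the endothelial and epithelial list Pecam1 (1.23, SE 0.18, adjusted p = 0.00582) and Epcam (2.94, SE 0.42, adjusted p = 0.00529) rose. The keratins Krt8 and Krt18 and the endothelial Kdr and Cdh5 were under 2.5 RPKM. At these low levels Kdr had 1 count in trNK-V and 117 in trNK-T, Emcn 0 and 88, and Cdh5 0 and 35. The keratins Krt18 (46 and 0 counts) and Krt19 (23 and 0) went the other way. The part of such cells in the results was not tested.

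For the 992 called genes, the trNK-D libraries, which did not enter the fold change, lay in between in nearly all cases. The mean log2 level in trNK-D fell between those of trNK-V and trNK-T for 966 genes (97.4%), beyond trNK-T for 9 and beyond trNK-V for 17. Over all 4682 tested genes it fell between them for 68.9%, and the called genes were chosen for a gap between trNK-V and trNK-T, so the difference in these shares was not tested. The share was 96.8% of the genes higher in trNK-T and 97.7% of those lower. The median position was 0.453 of the way from trNK-V to trNK-T. It depended on the library, at 0.562 without trNK-D replicate 1 and 0.333 without trNK-D replicate 2.

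The same genes were read in libraries that had no part in the contrast. In trNK-V cells sorted at gd6.5 and cultured for 72 h with IL-15, with or without 20 ng/mL IL-21, 263 of the genes higher in trNK-T were tested, and 218 of them (82.9%) were higher with IL-21, against 48.3% of all 4159 tested genes, and their median log2 fold change was 0.54, that of all tested genes -0.02. Of the 440 tested genes lower in trNK-T, 25.9% were higher with IL-21, with a median of -0.42, and without control replicate 2 these were 39.7% and -0.25. Few passed the test in these 2 against 2 libraries: 12 genes (0.289% of those tested) were called, all higher with IL-21. They included 5 of the genes higher in trNK-T (Gzmb, Prf1, Spp1, Ctla4 and Gadd45g) and 2 of those lower (Ifng and Gpr18). At an unadjusted p under 0.05, 168 genes were higher and 129 lower. The fit also held cultures with IL-21 and a STAT3 inhibitor. The call count was 2 without control replicate 1, 7 without control replicate 2, 6 without IL-21 replicate 1 and 19 without IL-21 replicate 2, and was 162 by DESeq2, which called 38 of the genes higher in trNK-T higher with IL-21 and 1 lower, and of those lower in trNK-T 32 lower and 12 higher.

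In the separate time course, trNK-V cells sorted at gd6.5 were likewise cultured with IL-15, with or without IL-21. The main fit held all of its time points. At 72 h 283 of 3503 tested genes were called (8.08%), 230 higher with IL-21 (6.57%) and 53 lower (1.51%). The libraries at 72 h were uneven, with 10728 and 11671 genes with a count without IL-21 and 14004 and 12004 with it. IL-21 replicate 2 thus lay near those without IL-21. The mitochondrial ribosomal RNA mt-Rnr2 was at 12382 and 20742 RPKM without IL-21 and 5768 and 8299 with it. In the culture described before, mt-Rnr2 was at 1122 and 774 RPKM without IL-21 and 860 and 543 with it. The part of this in the time course counts was not tested. Of the genes higher in trNK-T, 36 of 259 tested (13.9%) were called higher and 1 lower, and 62.9% had positive fold changes against 52.9% of all tested genes. Of the genes lower in trNK-T, 11 of 284 were called higher and 4 lower. These counts were unstable, with 1032 calls without control replicate 1, 552 without IL-21 replicate 2, and 0 when the fit held only the 2 groups at 72 h.

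In whole trNK at gd8.5 against gd6.5, not split by CD55 and 4-1BB, edgeR called 0 of 4504 genes (79 higher and 183 lower at an unadjusted p under 0.05, 221 by DESeq2, and 249 when the fit held only these 2 groups). The main fit also held trNK of virgin females. The genes higher in trNK-T had positive fold changes in 32.5% of 332 tested, against 50.3% of all tested genes, with a median of -0.24. Those lower in trNK-T had positive fold changes in 67.6% of 429, with a median of 0.29. Both depended on gd6.5 replicate 1, without which the shares were 42.8% and 57.2% and the medians -0.08 and 0.10, and without gd6.5 replicate 2 the median of the genes lower in trNK-T was 0.45.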

How the data were processed

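Uterine trNK were sorted, their cDNA was made with SMART-Seq HT and their libraries were sequenced in pairs of 150 bases. The authors aligned the reads to mm10 with HISAT2 2.1.0, and the processing notes name featureCounts of Subread, while the methods name RSEM for this kind of data; the deposited values were whole-number counts per gene, which were used as deposited, together with the gene lengths in the same files. RPKM was computed from these counts and lengths and served for the filter and for display only. Counts were tested in R 4.3.3 with edgeR 4.0.16 (TMM scaling, quasi-likelihood F test, Benjamini-Hochberg adjustment over all tested genes), in 1 fit over the 6 trNK-V, trNK-D and trNK-T libraries. A gene was kept if both libraries of at least 1 subset exceeded 10 RPKM, and was called at an adjusted p under 0.05 and a fold change over 2. The SE is the size of the log2 fold change divided by the root of F. DESeq2 1.42.0 and limma 3.58.1 gave alternatives, and the test was checked on simulated data.

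Genes with no count in one subset are given as a bound against a floor of 3 counts a library. Such floors cover counting error only. Depth limits the low genes: 1 count in a library of this size is far below the filter for most genes. The shortest features, such as Trbd1 of 12 bases and the small RNAs, can pass the filter on few counts. The position of trNK-D was taken on log2(RPKM + 0.01). Promoters came from RefSeq's GRCm38.p6, which is the assembly called mm10. The members and gene lists were chosen with earlier results of these data known. Genes named by rule were the list members, and among called genes, leaving out predicted gene models, pseudogenes and macrophage markers, the 15 largest rises and 15 largest falls and the 5 of highest mean RPKM in each direction. The culture, the time course and the gestation libraries were each fitted apart. Each main fit held all groups of its experiment, which entered the filter and the estimate of spread. The further groups were IL-21 with a STAT3 inhibitor in the culture, the earlier times in the time course, and virgin trNK in gestation. No contrast of these further groups was made, and the single-cell libraries were not analysed here. A few genes are not reported here.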

Additional observations from a re-analysis of the deposited data

How the results depend on the processing

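The direction of all 195 named called genes was kept in every setting that tested them (188 where the macrophage and MHC class II genes were left out). All 195 calls remained with DESeq2's size factors, upper-quartile scaling, DESeq2 and the replicate block, 190 with limma-voom, 191 in a fit of trNK-V and trNK-T only, 187 with no filter and 149 with edgeR's filterByExpr. Single libraries counted more: 116 remained without trNK-V replicate 2 and 106 without trNK-T replicate 2. Of 64 counts of list members called in 1 direction, 42 stayed within 1.5 times with no filter, 43 with filterByExpr, 39 without trNK-V replicate 2 and 37 without trNK-T replicate 2, and 52 to 64 in the other settings. The number of genes called was 2024 with no filter (997 higher, 1027 lower, so that 49.3% were higher) and 1622 with no fold limit (710 higher, 912 lower). With filterByExpr it was 969 (480 higher, 489 lower, 49.5% higher), against 38.1% higher in the filtered fit. Leaving out 1 library gave 365 to 971 genes, 142 to 434 higher and 223 to 590 lower. The share of called genes with trNK-D in between was 91.4% to 95.9% in the leave-outs (90.7% to 95% of those higher, 91.9% to 96.4% of those lower).

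Same-numbered libraries did not deviate together in every pair of subsets (correlations of deviations 0.119 for trNK-V with trNK-D, -0.0086 for trNK-V with trNK-T and 0.387 for trNK-D with trNK-T), so the number was not treated as a pairing. With the replicate number as a block, 1048 genes were called between trNK-T and trNK-V, and 1 in the IL-21 culture (1 of the genes higher in trNK-T).

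In brackets, the first pair is of genes higher in trNK-T called higher and lower, the second of genes lower in trNK-T called lower and higher. In the IL-21 culture, DESeq2 called 162 genes (38 and 1, 32 and 12) and the unfiltered fit 146 (36 and 1, 23 and 10). Leave-outs gave 2 to 19, with 1 to 7 of the genes higher in trNK-T higher and, of those lower in trNK-T 0 to 2 called lower and 0 to 2 higher. At 72 h of the time course, the fit of 2 groups called 0 (414 higher and 151 lower at an unadjusted p under 0.05 in the full edgeR fit), DESeq2 475 (58 and 3, 11 and 23) and the unfiltered fit 1519 (88 and 3, 12 and 44). Leave-outs gave 242 to 1032, with 24 to 85 of the genes higher in trNK-T higher and 3 to 10 lower, and of those lower in trNK-T 6 to 28 lower and 6 to 52 higher. For gd8.5 against gd6.5, the fit of 2 groups called 249 (4 and 19, 6 and 26), DESeq2 221 (0 and 17, 5 and 16) and the unfiltered fit 452 (7 and 20, 9 and 22), while leave-outs called 0. The cause of these changes was not tested.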

Other observations

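The gene groups below were chosen after the values were seen, so their counts are descriptions with no test of the group. Genes of cholesterol synthesis were higher in trNK-T: of 22, 13 were tested and 9 called, all higher (8.07% of all tested genes), with a median log2 fold change of 2.05. Hmgcs1, which makes the precursor of mevalonate, was at 8.79 and 5.39 RPKM in trNK-V and 37.4 and 51.1 in trNK-T (2.65, SE 0.29, edgeR adjusted p = 0.003), and 3 of the 13 passed the filter through trNK-T alone. Of 16 genes of one-carbon and serine metabolism, 10 were tested, 2 of them through trNK-T alone, and 7 called higher (70%, against 8.07% of all tested genes), with a median of 1.73. Of these calls, 4 were left without trNK-V replicate 2 and 4 without trNK-T replicate 2. Among them Mthfd2, the mitochondrial folate enzyme, rose from 5.35 and 6.68 to 39.4 and 37.7 RPKM (2.68, SE 0.34, adjusted p = 0.00403). Both genes were called in every leave-out. Of 18 tested cytosolic tRNA synthetases 5 were called higher (27.8%), with a median of 0.77, of which 3 were left without trNK-V replicate 2 and 1 without trNK-T replicate 2. Of 36 tested proteasome subunits 1 was called higher (2.78%), with a median of 0.50, and lost its call without trNK-V replicate 2 or trNK-T replicate 2. Of 7 polyamine genes, all tested, 1 was called higher (14.3%, against 8.07% of all tested genes) and 6 were not called, with a median of 0.44. Srm, which makes spermidine, rose from 63.0 and 29.9 to 233 and 238 RPKM (2.35).

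Of 170 small nuclear and nucleolar RNAs, 18 were tested and 11 called lower (61.1%, against 13.1% of all tested genes), with a median of -1.91, and 9 of the 18 passed the filter through trNK-V alone. These calls rested on single libraries, with 1 left without trNK-V replicate 2 and 0 without trNK-T replicate 2.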
